A study of Mus musculus with 13 samples.

Results

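Chemokine and chemoattractant receptors were examined in RNA of isolated mouse neurovasculature, a brain fraction enriched for vessels and the cells attached to them. The group holds 9 of the 47643 genes in the count table, chosen by symbol: *Ccr1*, *Ccr2*, *Ccrl2*, *Cxcr4*, *Ackr1*, *Ackr2*, *Ackr3*, *Cmklr1* and *Fpr2*. The rule uses no measured value, but the set was drawn up with earlier results of these data known. The 13 male CD1 mice were 8 to 10 weeks old, and each gave 1 library. The 4 sham-vehicle mice received PBS in place of lipopolysaccharide (LPS). The 5 LPS-vehicle mice received 3 mg/kg of intraperitoneal Salmonella LPS at 0, 6 and 24 h. The 4 LPS-CPD-4645 mice received the same LPS and, 30 min after each dose, 10 mg/kg of CPD-4645, an inhibitor of monoacylglycerol lipase, under the skin. The 30 min delay is that of the labels, and the study's text also gives a longer one. The vehicle of CPD-4645 was a mixture of DMSO, Cremophor and saline, and tissue was taken at 28 h. No group received CPD-4645 without LPS, so the compound's own effect on the receptors was not tested.

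Most of these receptors are G protein-coupled receptors that steer leukocytes along gradients of chemokines, chemerin or formylated peptides. The atypical receptors, encoded by the *Ackr* genes, bind chemokines without coupling to G proteins and move, hold or degrade them. *Ccrl2* encodes a related receptor that binds chemerin and presents it to cells carrying the chemerin receptor. In vessels, such receptors help to set which chemokines blood cells meet at the endothelium, and leukocytes bring receptors of their own.

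The measurements were read counts per gene, given here as CPM, in which every library is scaled to one common total with TMM factors. Total counts ran from 7813559 to 55133373 per library, and the shallowest were those of LPS-vehicle mouse 3 and of mouse 1 with CPD-4645. A receptor is said to have risen or fallen where the edgeR quasi-likelihood test passed an adjusted p of 0.05, by the Benjamini-Hochberg method over the 17285 genes tested, together with a change of at least 2-fold. All adjusted p-values are from this fit unless another tool is named. In bulk RNA, a change in the number of cells carrying a receptor and a change in its RNA per cell cannot be told apart. The fraction did not hold vessels alone. The 5 neuronal markers summed to between 5475 and 7477 CPM per library, against 289.9 to 675 CPM for the 8 endothelial markers. Of the 9 receptors, 8 passed the filter on low counts and were tested, and *Ccr2* was not. A gene had to reach 0.371 CPM, which is 10 counts at the median total and is taken here before TMM scaling, in the number of libraries of the smallest group. *Ccr1* reached this level in 1 of 4 sham-vehicle libraries and *Fpr2* in 2 of 4, so their entry into the test rested on the LPS groups. The other 6 tested receptors reached it in every library.

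The sequence before the transcription start is shown for the 4 receptors that passed the test between LPS-CPD-4645 and sham-vehicle mice, since 3 of these rose and 1 fell. Each line holds the 250 bases before the RefSeq start, 5′ to 3′ on the gene's strand, on build GRCm38.p6. Capitals mark matches to any of 4 short motifs that were searched on both strands. These were the NF-kB motif GGGNNNNNCC, the STAT motif TTCNNNGAA, the glucocorticoid receptor motif ACANNNTGT and the hypoxia motif ACGTG. A line without capitals holds no match.
Ccrl2, chr9:111057519-111057768, minus strand: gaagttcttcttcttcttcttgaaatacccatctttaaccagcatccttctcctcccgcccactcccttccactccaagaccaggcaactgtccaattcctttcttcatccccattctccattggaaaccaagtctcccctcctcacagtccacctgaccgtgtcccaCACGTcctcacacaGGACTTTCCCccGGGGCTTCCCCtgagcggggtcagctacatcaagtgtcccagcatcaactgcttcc
Fpr2, chr17:17887574-17887823, plus strand: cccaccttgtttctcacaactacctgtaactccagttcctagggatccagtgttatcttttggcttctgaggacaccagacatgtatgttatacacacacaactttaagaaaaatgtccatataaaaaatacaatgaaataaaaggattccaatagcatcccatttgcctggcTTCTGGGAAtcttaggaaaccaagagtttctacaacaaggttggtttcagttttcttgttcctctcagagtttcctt
Cxcr4, chr1:128592300-128592549, minus strand: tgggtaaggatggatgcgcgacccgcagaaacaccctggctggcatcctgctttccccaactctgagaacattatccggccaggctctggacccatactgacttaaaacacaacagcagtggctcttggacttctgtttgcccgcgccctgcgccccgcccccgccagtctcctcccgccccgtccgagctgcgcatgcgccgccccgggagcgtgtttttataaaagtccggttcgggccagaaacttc
Ackr3, chr1:90203730-90203979, plus strand: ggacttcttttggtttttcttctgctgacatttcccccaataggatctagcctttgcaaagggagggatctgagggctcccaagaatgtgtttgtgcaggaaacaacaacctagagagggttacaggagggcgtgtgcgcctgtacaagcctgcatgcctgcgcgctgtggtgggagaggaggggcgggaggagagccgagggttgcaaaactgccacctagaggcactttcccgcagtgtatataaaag

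*Ccrl2* has 3 RefSeq start windows, of which the one shown lies farthest upstream. It held NF-kB matches between 46 and 56 and between 59 and 68 bases before the start, and a hypoxia match at 78 to 82 bases. The other 2 *Ccrl2* windows held no NF-kB match. The *Fpr2* window held a STAT match at 69 to 77 bases before the start and no NF-kB match. Over all 9 receptors, which have 11 RefSeq start windows, an NF-kB match lay in 4 of the 11 windows (those of *Ccr1*, *Ackr2* and *Cmklr1* and 1 of *Ccrl2*), against 45.8% of all 32851 RefSeq windows of the same length. Of the 11 windows that of *Fpr2* alone had a STAT match, and 7.02% of all windows held one. A hypoxia match was found in 4 of the 11 windows, 3 of *Ccrl2* and 1 of *Cmklr1*, with 16.6% of all windows holding one. The *Ccrl2* windows overlap in part, and the 2 that are not shown hold the same hypoxia site, which is counted in each. None of the 11 had a glucocorticoid receptor match, which 5.84% of all windows held. The NF-kB and hypoxia motifs did not overlap in the *Ccrl2* window. These matches describe letters and do not show that a factor binds.

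After LPS, 5 of the 8 tested receptors rose and none fell. They were *Fpr2*, *Ccr1*, *Ccrl2*, *Ackr1* and *Ackr2*. For *Fpr2* and *Ccr1*, which enter every count of this paragraph, entry into the test rested on the LPS groups. Of all genes tested, 4.68% rose and 0.995% fell in this comparison. By the adjusted p alone, 8 of 8 tested receptors differed from sham-vehicle mice, against 19.9% of all genes tested. With 1 mouse left out this count ran from 4 to 8. Without sham-vehicle mouse 4 it was 4, with *Cxcr4*, *Ackr2*, *Ackr3* and *Cmklr1* lost, and without sham-vehicle mouse 3 or LPS-vehicle mouse 5 it was 5, with the last 3 of these lost. The ranges of both groups did not overlap for 7 of the 8, against 18.1% of all genes tested. The median log2 fold change of the 8 was 1.21, beside 0.00 for all genes tested. Next to LPS-vehicle mice, 1 receptor, *Cmklr1*, passed both thresholds as lower in LPS-CPD-4645 mice and none as higher, where 4.19% of all genes fell and 1.7% rose. The adjusted p alone passed for 4 of 8 (30.5% of all genes) and for 4 to 6 with 1 mouse left out, and ranges were apart for 2 of 8 (23% of all genes). Against sham-vehicle mice, *Ccrl2*, *Ackr3* and *Fpr2* passed both thresholds as higher in LPS-CPD-4645 mice and *Cxcr4* as lower. In that comparison 6.11% of all genes were higher and 4.98% lower, 5 of 8 receptors passed the adjusted p alone (38.8% of all genes), and 5 of 8 had ranges apart (37.5% of all genes). The 3 comparisons share groups of mice and are not independent of each other.

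**Figure D1:**
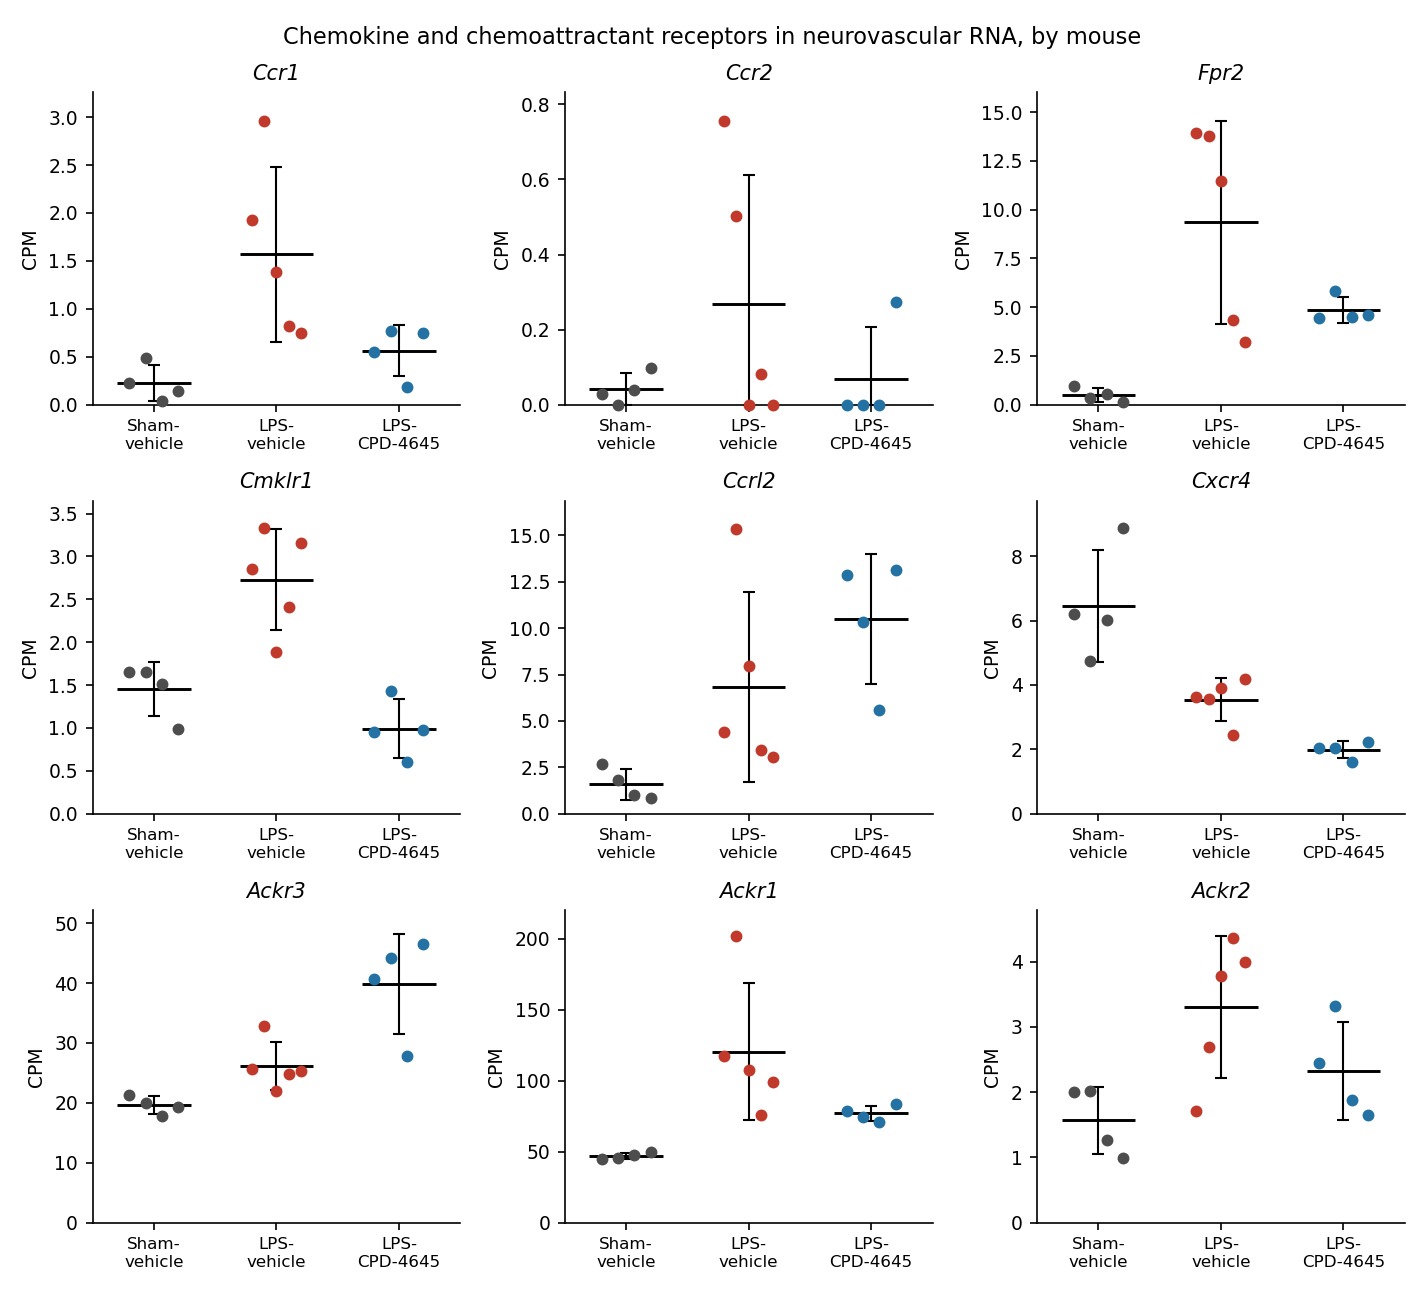
CPM of each receptor (y axis, from 0 in every panel) in each mouse (points) of the 3 groups (x axis), with the group mean (horizontal line) and SD (bars, cut at 0). *Cxcr4* was highest in the 4 sham-vehicle mice and lowest in the 4 LPS-CPD-4645 mice with no overlap between any of the groups, and *Fpr2* was at or above 3.22 CPM in every LPS-treated mouse.

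**Figure D2:**
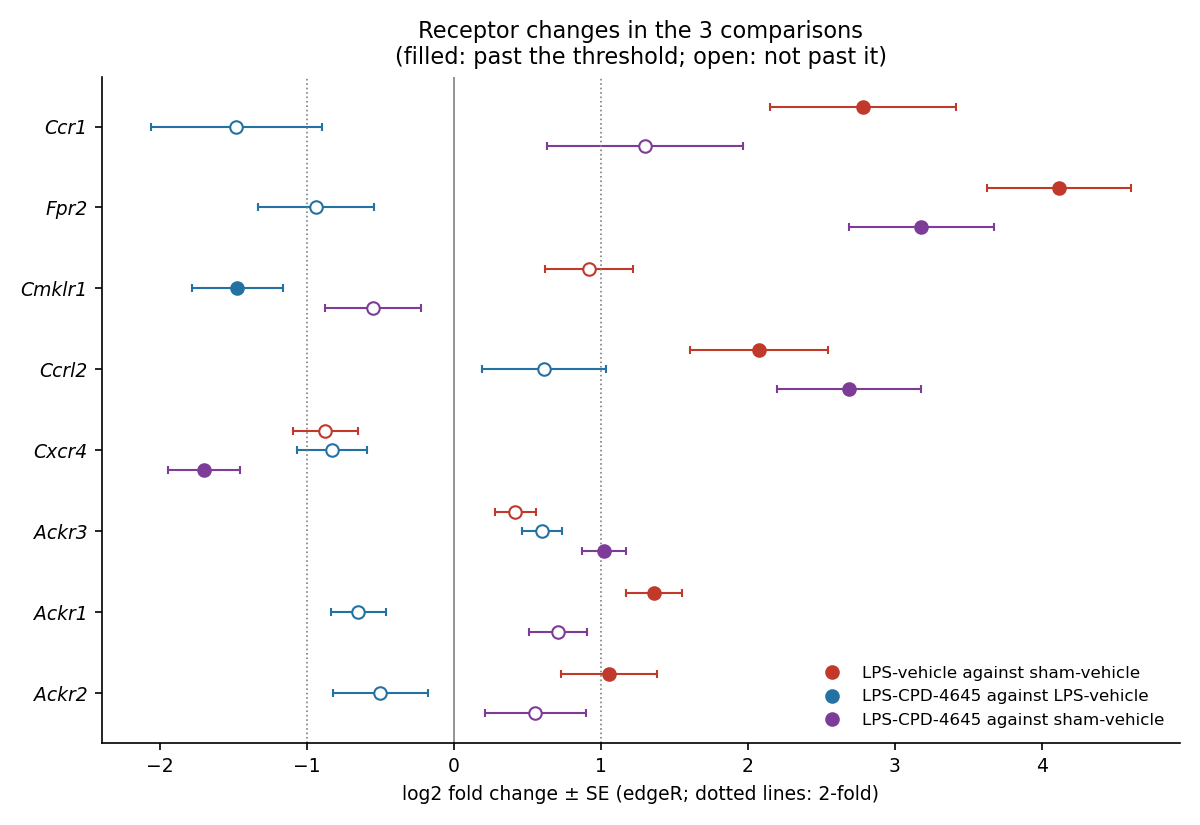
The log2 fold change of each tested receptor (x axis) with its SE (bars) in the 3 comparisons (colours). Filled points passed the adjusted p and 2-fold thresholds. *Fpr2* had the highest value, 4.12 after LPS, and *Cmklr1* has the single filled point for LPS-CPD-4645 against LPS-vehicle mice.

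*Fpr2*, the formyl peptide receptor that also binds annexin A1, serum amyloid A and the cathelicidin peptide, showed the greatest rise of the 9. The gene lies on chr17:17887824-17893952 of GRCm38, plus strand. Its values were 0.941, 0.362, 0.558 and 0.148 CPM in sham-vehicle mice 1 to 4. They were 13.9, 13.8, 11.5, 4.35 and 3.22 CPM in LPS-vehicle mice 1 to 5. In LPS-CPD-4645 mice 1 to 4 they were 4.43, 5.84, 4.52 and 4.59 CPM. Every LPS-treated mouse, with or without CPD-4645, lay above every sham-vehicle mouse. The rise after LPS was 17.4-fold (log2 4.12, SE 0.49, adjusted p = 7.7e-06), and in LPS-CPD-4645 mice it was 9.06-fold over sham-vehicle (log2 3.18, SE 0.49, adjusted p = 7.1e-05). The LPS-CPD-4645 values sat between the 3 high and the 2 low LPS-vehicle mice, and the difference was log2 -0.94 (SE 0.40, adjusted p = 0.082). It passed both thresholds without LPS-vehicle mouse 4 (log2 -1.12, adjusted p = 0.038) or mouse 5 (log2 -1.16, adjusted p = 0.019). *Fpr2* overlaps *Fpr3* on the same strand and shares 20.9% of its 75-base windows with *Fpr3* and *Gm5966*. *Fpr3* was listed at 0 in all 13 libraries, so how reads were divided between these paralogs is uncertain.

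*Ccr1*, a receptor for inflammatory CC chemokines such as CCL3 and CCL5 on myeloid cells, was scarce in sham-vehicle mice and rose after LPS. It lies on chr9:123962124-123968692, minus strand. Sham-vehicle mice had 0.228, 0.483, 0.0398 and 0.148 CPM. LPS-vehicle mice had 1.92, 2.96, 1.39, 0.821 and 0.745 CPM. LPS-CPD-4645 mice had 0.553, 0.769, 0.188 and 0.746 CPM. The lowest LPS-vehicle mouse was above the highest sham-vehicle mouse, while the LPS-CPD-4645 values overlapped both groups. The rise was 6.87-fold (log2 2.78, SE 0.63, adjusted p = 0.0042), and it was log2 3.42 without sham-vehicle mouse 2, the highest of its group. LPS-CPD-4645 mice differed from LPS-vehicle mice by log2 -1.48 (SE 0.58, adjusted p = 0.062) and from sham-vehicle mice by log2 1.30 (SE 0.67, adjusted p = 0.13). Single mice decided both calls. Without sham-vehicle mouse 2 the values were log2 -1.47 (adjusted p = 0.046) and 1.95 (adjusted p = 0.044). Without LPS-vehicle mouse 4 or 5 the first was log2 -1.65 (adjusted p = 0.049) or -1.66 (adjusted p = 0.044).

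*Ccr2*, the CCL2 receptor of classical monocytes, was at the edge of detection. Its gene is on chr9:124101950-124113557, plus strand. The counts were 1, 0, 1 and 2 in sham-vehicle mice, 22, 28, 0, 3 and 0 in LPS-vehicle mice, and 0, 0, 0 and 7 in LPS-CPD-4645 mice. Most of the reads were those of LPS-vehicle mice 1 and 2, and the other 3 had 0 to 3 counts. A floor of 3 counts corresponds to between 0.0538 and 0.378 CPM, depending on the depth of the library. With no filter on low counts, edgeR gave log2 2.69 (SE 1.31, adjusted p = 0.21) for LPS-vehicle against sham-vehicle mice. The same fit gave log2 -1.89 (SE 1.24, adjusted p = 0.32) for LPS-CPD-4645 against LPS-vehicle mice.

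*Cmklr1*, the signalling receptor for chemerin on macrophages and other myeloid cells, was the only receptor to pass both thresholds between the LPS groups. It was lower with CPD-4645 than with LPS alone. It lies on chr5:113612354-113650426, minus strand, and overlaps the antisense gene *Gm15736*, which had no counts. Sham-vehicle mice had 1.65, 1.65, 1.51 and 0.988 CPM, LPS-vehicle mice 2.85, 3.34, 1.89, 2.41 and 3.16 CPM, and LPS-CPD-4645 mice 0.949, 1.43, 0.602 and 0.981 CPM. All LPS-vehicle values lay above those of both other groups, which overlapped. *Cmklr1* was 2.77-fold lower in LPS-CPD-4645 than in LPS-vehicle mice (log2 -1.47, SE 0.31, adjusted p = 0.0018). After LPS alone it was 1.90-fold higher than in sham-vehicle mice (log2 0.92, SE 0.30, adjusted p = 0.037), under the 2-fold threshold. That difference came to log2 1.01 (adjusted p = 0.026) without LPS-vehicle mouse 3, the shallowest library. LPS-CPD-4645 and sham-vehicle mice differed by log2 -0.55 (SE 0.33, adjusted p = 0.20).

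Markers of neutrophils and of monocytes and macrophages were measured beside these leukocyte receptors. The summed level of 10 neutrophil markers ran from 1.23 to 5.62 CPM in sham-vehicle, from 66.6 to 281.4 CPM in LPS-vehicle and from 7.30 to 27.8 CPM in LPS-CPD-4645 mice. Of the 8 that were tested, *Cxcr2*, *Camp* and *Retnlg* entered the test only through the LPS-vehicle libraries, the group in which they were high. The other 5 passed as higher after LPS and lower with CPD-4645, where 4.68% of all genes tested rose and 4.19% fell. Before TMM scaling, *S100a9* alone of the 8 reached the filter's level in all sham-vehicle libraries. The entry of 7 of the 8 thus rested on the LPS groups. Of the 8 monocyte and macrophage markers, 7 rose after LPS and 4 fell with CPD-4645, against 4.68% and 4.19% of all genes tested, with sums of 10.7 to 15.4, 32.8 to 89.7 and 12.6 to 19.4 CPM. The entry of 5 of these 8 rested on the LPS groups, and that of *Ms4a4c* on LPS-vehicle mice alone. No marker of either list was at 0 in a whole group. LPS-vehicle mice 1, 2 and 3 had the higher monocyte and macrophage sums, 75.5, 74.4 and 89.7 CPM against 47.6 and 32.8 CPM in mice 4 and 5. The same 3 mice had the higher neutrophil sums, 84.2, 281.4 and 110.8 CPM against 66.6 and 67.5 CPM in mice 4 and 5. They were also the 3 mice with the higher *Fpr2* and *Ccr1*. None of the 6 microglial markers rose after LPS and 2 fell, against 0.995% of all genes, with sums of 174.6 to 235.1, 113.7 to 217.8 and 117.3 to 142.9 CPM. These brains were not perfused, so the material can include blood held in the vessels. The part of these cells in the receptor values was not tested.

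**Figure D3:**
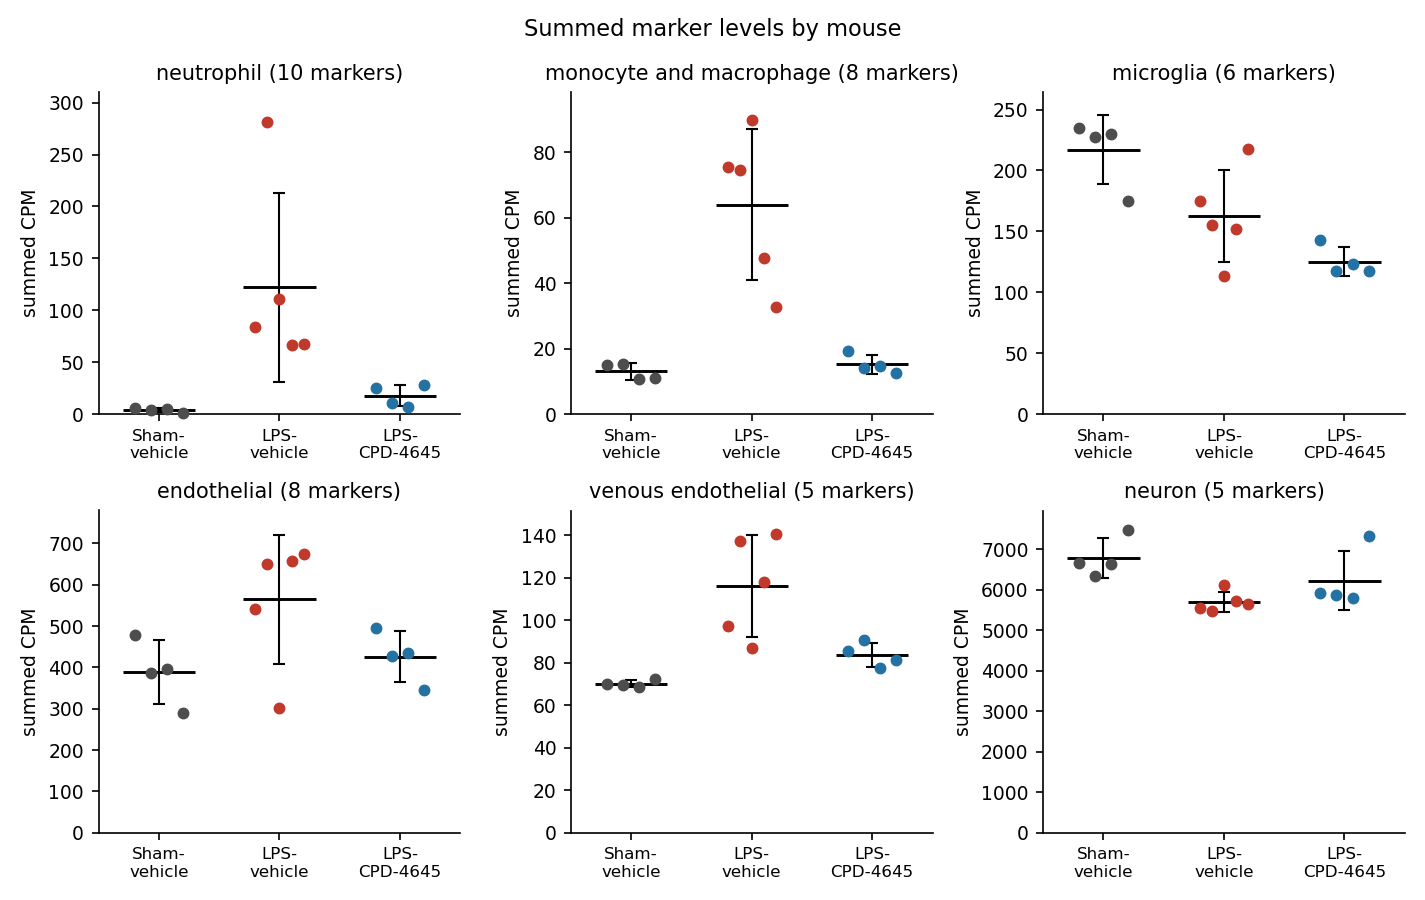
Summed CPM of cell type marker lists (y axis, from 0) in each mouse (points) of the 3 groups (x axis), with the mean (line) and SD (bars). Neutrophil markers reached 281.4 CPM in LPS-vehicle mouse 2 and at most 27.8 CPM in LPS-CPD-4645 mice, and neuronal markers stood at 5475 CPM or more in every library.

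*Ccrl2* followed another course, with its highest group mean in LPS-CPD-4645 mice. The gene lies on chr9:111054486-111057519, minus strand. Sham-vehicle mice had 2.68, 1.81, 0.996 and 0.840 CPM. LPS-vehicle mice had 4.39, 15.3, 7.94, 3.42 and 3.04 CPM, and LPS-CPD-4645 mice had 12.9, 10.3, 5.61 and 13.2 CPM. All LPS-treated mice lay above all sham-vehicle mice, and LPS-vehicle mouse 2 was the highest of the 13. *Ccrl2* rose 4.21-fold after LPS (log2 2.07, SE 0.47, adjusted p = 0.0041), and the rise was log2 1.47 without LPS-vehicle mouse 2 (adjusted p = 0.012). In LPS-CPD-4645 mice it was 6.44-fold over sham-vehicle (log2 2.69, SE 0.49, adjusted p = 0.00032). The 2 LPS groups differed by log2 0.61 (SE 0.42, adjusted p = 0.29), and by log2 1.22 (adjusted p = 0.017) without LPS-vehicle mouse 2. *Cmklr1*, the signalling receptor for the same ligand, was lower with CPD-4645 in the comparison in which *Ccrl2* did not pass, and the difference between the changes of these genes was not tested.

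*Cxcr4* and *Ackr3* share the ligand CXCL12. *Cxcr4* signals and guides leukocytes and vessel growth, whereas *Ackr3* takes up CXCL12 and also binds CXCL11 and adrenomedullin. *Cxcr4* is on chr1:128588199-128592293, minus strand. It measured 6.19, 4.75, 6.01 and 8.89 CPM in sham-vehicle, 3.64, 3.55, 3.91, 2.44 and 4.17 CPM in LPS-vehicle, and 2.06, 2.03, 1.62 and 2.24 CPM in LPS-CPD-4645 mice. The 3 groups did not overlap and stood in this order from high to low. *Cxcr4* was 1.83-fold lower after LPS (log2 -0.87, SE 0.22, adjusted p = 0.0089) and a further 1.77-fold lower with CPD-4645 (log2 -0.83, SE 0.24, adjusted p = 0.013), each under the 2-fold threshold. From sham-vehicle to LPS-CPD-4645 mice it fell 3.25-fold (log2 -1.70, SE 0.24, adjusted p = 3.2e-05), and no mouse left out ended that call.

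*Ackr3* ran the other way. The gene lies on chr1:90203980-90216751, plus strand. Sham-vehicle mice had 21.4, 19.9, 17.9 and 19.3 CPM, LPS-vehicle mice 25.7, 32.8, 21.9, 24.8 and 25.3 CPM, and LPS-CPD-4645 mice 40.7, 44.2, 27.8 and 46.6 CPM. Both LPS groups lay above sham-vehicle mice, and LPS-CPD-4645 mouse 3 alone fell inside the LPS-vehicle range. The difference was 1.34-fold after LPS (log2 0.42, SE 0.14, adjusted p = 0.044) and 1.52-fold between the 2 LPS groups (log2 0.60, SE 0.14, adjusted p = 0.0033). From sham-vehicle to LPS-CPD-4645 mice *Ackr3* rose 2.03-fold (log2 1.02, SE 0.15, adjusted p = 3.6e-05). That value stood at the 2-fold threshold and came to log2 0.99, 0.97 and 0.95 without sham-vehicle mouse 3, LPS-CPD-4645 mouse 2 and LPS-CPD-4645 mouse 4, with adjusted p from 0.00018 to 0.00025.

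*Ackr1*, the Duffy antigen receptor that carries chemokines across venular endothelium, had the highest CPM of the 9 in every mouse. It is on chr1:173331886-173333750, minus strand. Sham-vehicle mice were close together at 45.1, 45.9, 47.4 and 49.7 CPM. LPS-vehicle mice spread from 75.7 CPM in mouse 4 to 201.8 CPM in mouse 2, with 117.5, 107.6 and 99.2 CPM in mice 1, 3 and 5. LPS-CPD-4645 mice had 78.4, 74.5, 71.2 and 83.9 CPM. All LPS-treated mice lay above all sham-vehicle mice, and the lowest LPS-vehicle mouse lay inside the LPS-CPD-4645 range. *Ackr1* rose 2.57-fold after LPS (log2 1.36, SE 0.19, adjusted p = 5e-05). It was 1.57-fold lower in LPS-CPD-4645 than in LPS-vehicle mice (log2 -0.65, SE 0.19, adjusted p = 0.014) and 1.64-fold higher than in sham-vehicle mice (log2 0.71, SE 0.20, adjusted p = 0.0083), both under the 2-fold threshold. *Ackr1* overlaps *Cadm3* on the same strand, and 16.9% of its 75-base windows are shared with that gene. *Cadm3* averaged 459.9, 348.8 and 380.6 CPM in the 3 groups and was lower after LPS (log2 -0.40, SE 0.10, adjusted p = 0.0067). How reads were divided between *Ackr1* and *Cadm3* was not tested.

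Of 5 markers of venous endothelium, 3 rose after LPS and 1 fell, against 4.68% and 0.995% of all genes tested, with summed levels of 68.7 to 72.4 CPM in sham-vehicle, 87.0 to 140.9 CPM in LPS-vehicle and 77.5 to 90.8 CPM in LPS-CPD-4645 mice. With CPD-4645, 3 of the 5 fell, against 4.19% of all genes. These were *Vwf* and *Selp*, which had risen after LPS, and *Slc38a5*, which had already fallen after LPS. *Lrg1*, which had also risen after LPS, differed by log2 0.001 (SE 0.22) between the LPS groups. One of the 3 that rose, *Selp*, entered the test only through the LPS groups. The 8 general endothelial markers summed to 289.9 to 478.8, 302.7 to 675 and 345 to 495.4 CPM, and after LPS 2 of them rose and 2 fell, against 4.68% and 0.995% of all genes. The 5 erythrocyte markers, of interest because *Ackr1* takes its blood group name from red cells, summed to 467.7 to 957.2, 238.7 to 460.1 and 324.7 to 705.2 CPM, and none of the 4 tested passed both thresholds in any comparison. By the adjusted p alone all 4 were lower after LPS (log2 -0.74 to -0.98, adjusted p from 0.015 to 0.027), where 19.9% of all genes tested differed in either direction. No marker of the venous list was at 0 in a whole group. Their part in the *Ackr1* values was not tested.

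*Ackr2*, which internalizes and degrades inflammatory CC chemokines, rose least of the 5. It lies on chr9:121898355-121911074, plus strand. Sham-vehicle mice had 2.00, 2.01, 1.27 and 0.988 CPM, LPS-vehicle mice 1.72, 2.69, 3.78, 4.35 and 3.99 CPM, and LPS-CPD-4645 mice 2.45, 3.32, 1.88 and 1.65 CPM. LPS-vehicle mouse 1 fell inside the sham-vehicle range. Unlike *Fpr2* and *Ccr1*, *Ackr2* was higher in LPS-vehicle mice 3, 4 and 5 than in mice 1 and 2. The rise after LPS was 2.08-fold (log2 1.05, SE 0.33, adjusted p = 0.029). It did not pass without sham-vehicle mouse 3 (log2 0.97, adjusted p = 0.089), sham-vehicle mouse 4 (log2 0.90, adjusted p = 0.097), LPS-vehicle mouse 4 (log2 0.93, adjusted p = 0.075) or LPS-vehicle mouse 5 (log2 0.97, adjusted p = 0.061). LPS-CPD-4645 mice differed by log2 -0.50 (SE 0.32, adjusted p = 0.26) from LPS-vehicle and by log2 0.56 (SE 0.34, adjusted p = 0.21) from sham-vehicle mice.

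Levels of different receptors were compared as CPM per kb of exon. *Ackr1* led in every group, with 35.5 ± 1.52 in sham-vehicle (SD, n = 4), 90.9 ± 36.3 in LPS-vehicle (SD, n = 5) and 58.2 ± 4.13 CPM per kb in LPS-CPD-4645 mice (SD, n = 4). *Ackr3* came next, with means of 6.40 and 8.51 CPM per kb in sham-vehicle and LPS-vehicle mice and a range of 9.07 to 15.2 CPM per kb with CPD-4645. In sham-vehicle mice the third was *Cxcr4* at 3.58 CPM per kb, and the ranges of these 3 neighbours were apart from each other and from *Ccrl2*. *Ccrl2*, *Ackr2*, *Cmklr1* and *Fpr2* followed between 0.609 and 0.388 CPM per kb, and each overlapped its neighbour in range. *Ccr1* at 0.0793 and *Ccr2* at 0.00618 CPM per kb were last. In LPS-vehicle mice the third place was held by *Fpr2* at 7.22 CPM per kb, which overlapped *Ackr3* above and *Ccrl2* below, and *Ccrl2* (2.63) and *Cxcr4* (1.96 CPM per kb) followed with overlapping ranges. *Ccrl2* was above *Cxcr4* in 2 of the 5 mice, and without mouse 2 their means were 1.81 and 1.96 CPM per kb. In LPS-CPD-4645 mice the third was *Ccrl2* at 4.04 CPM per kb, which overlapped *Fpr2* at 3.74, and both lay above *Cxcr4* at 1.10 CPM per kb.

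**Figure D4:**
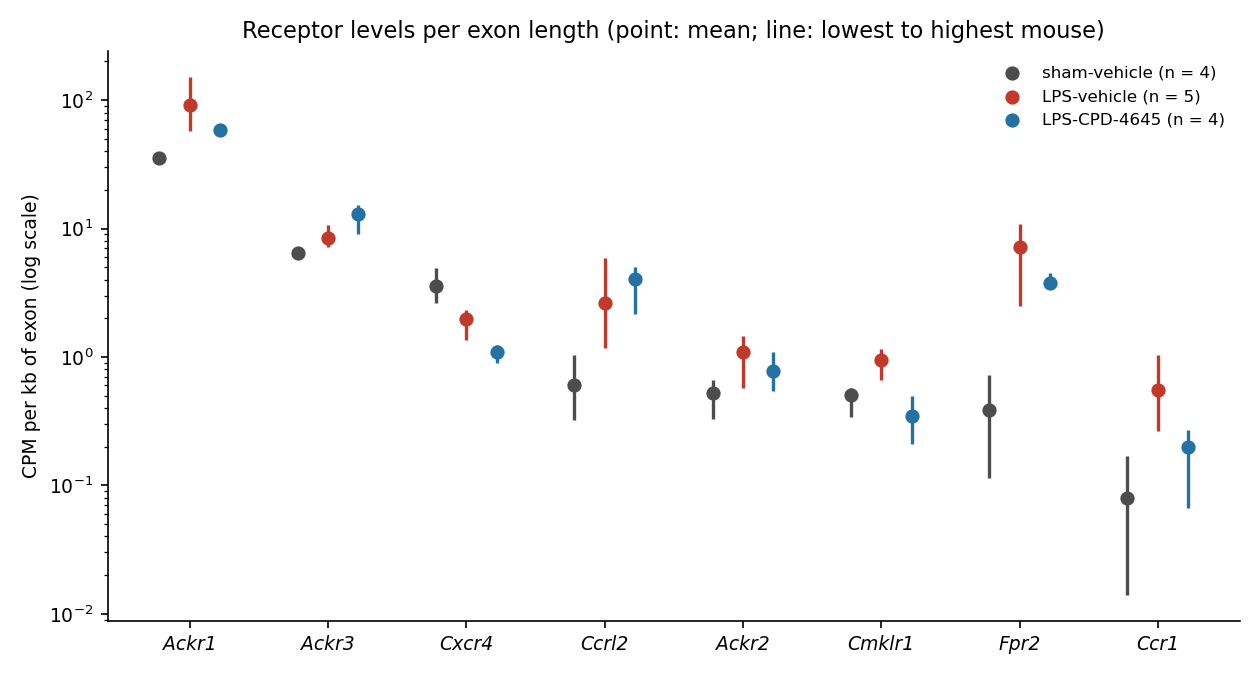
Mean CPM per kb of exon (points, logarithmic y axis) and the lowest to highest mouse (lines) for the 8 tested receptors (x axis, in the order of their sham-vehicle means) in the 3 groups (colours). *Ackr1* stood above all others, and *Cxcr4* held the third place in sham-vehicle mice, overlapped *Ccrl2* in LPS-vehicle mice and lay below it in LPS-CPD-4645 mice.

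Of 16 other chemokine receptors, 4 had enough counts to be tested. *Cxcr2*, the neutrophil receptor for CXCL1 and related chemokines, was at 0 in 3 of the 4 sham-vehicle mice and at 0.0797 CPM in mouse 3. Its mean was 1.03 CPM in LPS-vehicle and 0.0777 CPM in LPS-CPD-4645 mice. It reached the filter's level in all 5 LPS-vehicle libraries and in none of the other 8, so that its entry into the test rested on the group in which it was high, and its level is given with no test.

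Of 12 other chemoattractant receptors, 9 were tested and 3 rose after LPS, against 4.68% of all genes tested, all 3 of them genes whose entry into the test rested on the LPS groups. *Fpr1*, a close paralog of *Fpr2*, rose from 0.133 to 7.91 CPM (log2 5.83, SE 0.70, adjusted p = 8.3e-06). *C5ar1* and *C3ar1*, the receptors of complement fragments C5a and C3a, rose by log2 4.47 (SE 0.30, adjusted p = 1.5e-08) and 3.52 (SE 0.41, adjusted p = 6.2e-06). With CPD-4645, *Fpr1* fell (log2 -1.55, SE 0.50, adjusted p = 0.025), and so did *C5ar1* (log2 -1.48, SE 0.24, adjusted p = 0.00027). The *Fpr1* call was lost without LPS-vehicle mouse 1 (log2 -1.27) or 2 (log2 -1.42) or LPS-CPD-4645 mouse 3 (log2 -1.48) or 4 (log2 -1.36). *C3ar1* was at 14.5 CPM in LPS-vehicle and 13.9 CPM in LPS-CPD-4645 mice (log2 -0.07, SE 0.34, adjusted p = 0.90). All 3 remained higher than in sham-vehicle mice, by log2 4.28, 2.99 and 3.46 for *Fpr1*, *C5ar1* and *C3ar1*. *Gpr1*, the other chemerin receptor, did not pass in any comparison and averaged 1.20, 1.43 and 0.664 CPM in the 3 groups.

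Most ligands of the receptors rose after LPS. All 22 on the list were tested, and 16 rose and 1 fell, against 4.68% and 0.995% of all genes tested, with a median log2 fold change of 2.96. For 9 of the 22, among them *Ccl3*, *Ccl5*, *Ccl7* and *Camp*, entry into the test rested on the LPS groups. The 4 greatest rises were those of *Saa3*, an *Fpr2* ligand (log2 5.93, SE 0.52), *Ccl7* and *Ccl2*, ligands of *Ccr2* (log2 5.56, SE 0.71, and log2 5.17, SE 0.78), and *Ccl5*, a ligand of *Ccr1* (log2 5.49, SE 0.64). The edgeR adjusted p of these 4 was at most 0.00010. Without sham-vehicle mouse 1 the values of *Ccl2* and *Ccl5* were log2 6.01 and 6.29, and without LPS-vehicle mouse 3 that of *Ccl2* was log2 4.44. With CPD-4645, 5 fell and 1 rose relative to LPS-vehicle mice, against 4.19% and 1.7% of all genes. *Ccl6* (log2 -2.53, SE 0.45, adjusted p = 0.00053) and *Ccl7* (log2 -2.01, SE 0.54, adjusted p = 0.0089) were among those that fell. *Camp*, the cathelicidin gene, was also counted there, with means of 2.13 CPM in LPS-vehicle and 0.267 CPM in LPS-CPD-4645 mice, but entered the test only through LPS-vehicle mice. *Ccl17*, a T-cell chemokine, rose from 8.43 to 44.8 CPM (log2 2.40, SE 0.22, adjusted p = 2.0e-06). Against sham-vehicle mice, 13 ligands were higher and 1 lower in LPS-CPD-4645 mice, against 6.11% and 4.98% of all genes, led by *Cxcl1* (log2 5.01, SE 0.74), *Ccl3* (log2 5.00, SE 0.85), *Saa3* (log2 4.98, SE 0.51) and *Ccl5* (log2 4.89, SE 0.64). Without sham-vehicle mouse 1 those of *Cxcl1*, *Ccl3* and *Ccl5* were log2 6.21, 5.98 and 5.69.

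A few ligands were singled out after their values were seen because they pair with a receptor described above. *Cxcl12*, the ligand of *Cxcr4* and *Ackr3*, fell after LPS from 84.9 to 37.3 CPM (log2 -1.18, SE 0.13, adjusted p = 2.3e-06) and was at 37.0 CPM with CPD-4645 (log2 -0.02, SE 0.13, adjusted p = 0.93). *Adm*, which encodes adrenomedullin, rose after LPS by log2 1.44 (SE 0.21, adjusted p = 8.0e-05) and differed by log2 0.14 (SE 0.20, adjusted p = 0.64) between the LPS groups. *Rarres2*, which encodes chemerin, averaged 7.78, 13.5 and 9.56 CPM in the 3 groups and was log2 0.81 higher after LPS (SE 0.20, adjusted p = 0.0087), under the 2-fold threshold. *Anxa1*, which encodes annexin A1, rose after LPS by log2 1.36 (SE 0.28, adjusted p = 0.0019) and differed by log2 -0.51 (SE 0.27, adjusted p = 0.16) with CPD-4645.

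**Figure D5:**
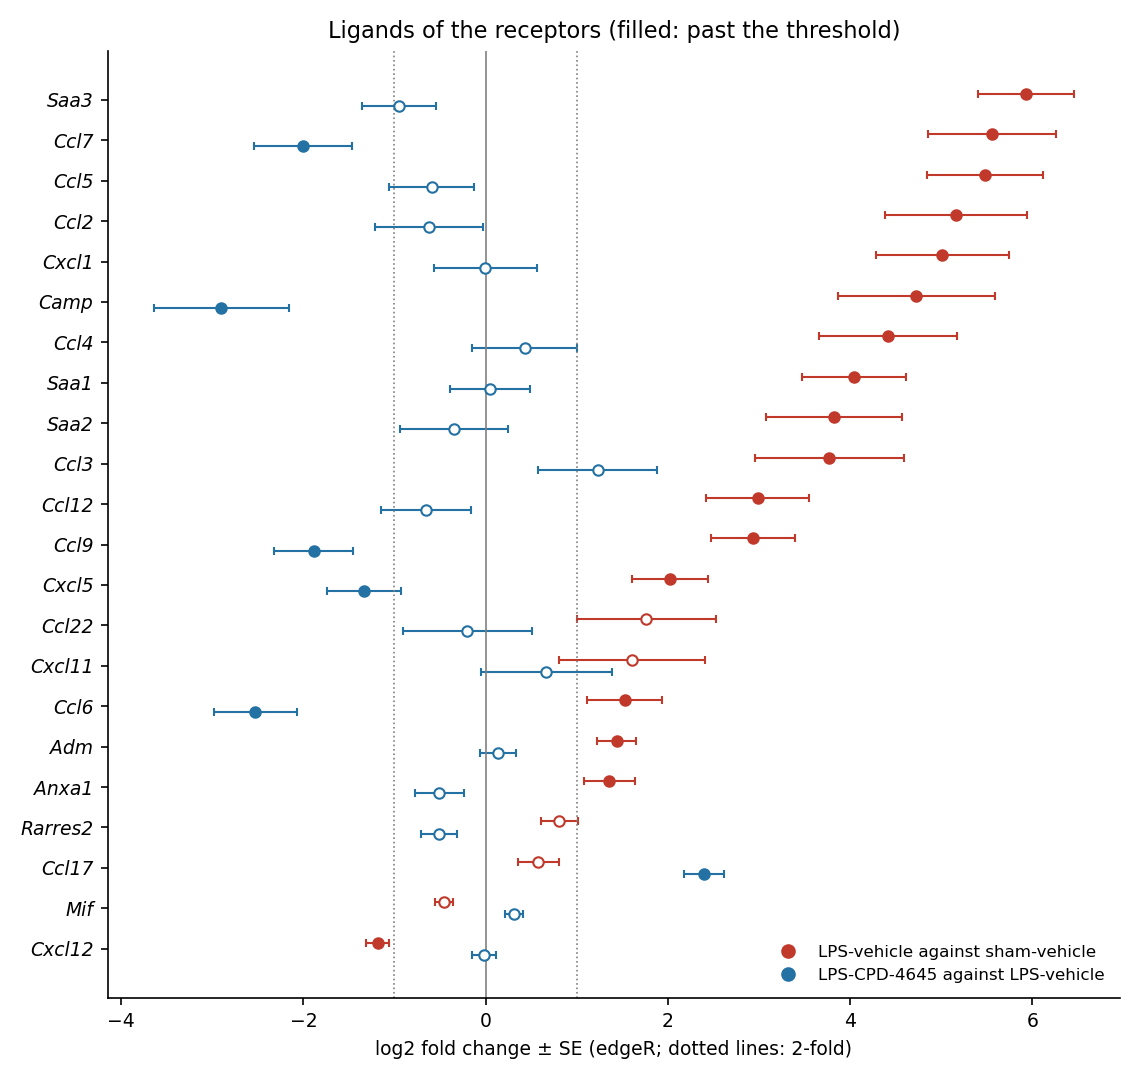
The log2 fold change (x axis) with its SE (bars) of the 22 ligands (y axis, in order of their change after LPS) for LPS-vehicle against sham-vehicle mice and LPS-CPD-4645 against LPS-vehicle mice (colours). Filled points passed both thresholds. *Cxcl12* is the single ligand that fell after LPS, and *Ccl17* the single one that rose with CPD-4645.

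Genes that act downstream of these receptors or switch them off were examined as a list of 25, of which 24 were tested. After LPS 4 rose, against 4.68% of all genes tested, and none fell. These were *Rac2* (log2 3.17, SE 0.24, adjusted p = 5.5e-08), *Pik3r5* (log2 3.11, SE 0.25, adjusted p = 1.1e-07), *Vav1* (log2 2.20, SE 0.25, adjusted p = 5.5e-06) and *Pik3cg* (log2 1.64, SE 0.35, adjusted p = 0.0024), which are leukocyte components of signalling to phosphoinositide 3-kinase gamma and Rac. With CPD-4645 *Pik3cg* fell (log2 -1.10, SE 0.34, adjusted p = 0.020) and no other member passed. This share of 1 in 24 is near that of all genes, of which 4.19% fell. The *Pik3cg* call was lost without LPS-vehicle mouse 1 (log2 -1.01) or 3 (log2 -0.96) or LPS-CPD-4645 mouse 3 (log2 -0.89) or 4 (log2 -0.95). Against sham-vehicle mice *Rac2*, *Pik3r5* and *Vav1* stayed higher in LPS-CPD-4645 mice, against 6.11% of all genes, and *Rgs19*, a regulator that ends G protein signals, was lower (log2 -1.07, SE 0.15, adjusted p = 1.8e-05), though under 2-fold without LPS-CPD-4645 mouse 4 (log2 -0.97).

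Genes with profiles most like each receptor over the 13 mice were found as those with the smallest root mean square difference of gene-centred log2 CPM, among 14845 genes of at least 1 CPM. Nearest to *Ccrl2* was *Tnfaip3* (0.30 log2 units), followed by *Zfp36* and *Oasl1*. Nearest to *Fpr2* were *Gm49339* (0.41), *Socs3* (0.44) and *Cd14* (0.45), and nearest to *Ccr1* were *Wfdc17* (0.44), *Ncf4* and *Ptges*. *Ackr1* had *Tnip1* (0.17) and *Gadd45g* (0.25) among its neighbours, *Cxcr4* had *Nwd2* (0.23), *Lrrc75a* and *Gm45768*, and *Ackr3* had *Elmsan1* (0.18), *Synm* and *Ino80c*. *Cmklr1* was closest to *Myo1f* (0.26), *Pgghg* and *Pxmp2*, and *Ackr2* to *Ptgds* (0.34), *Scara3* and *Armcx6*. None of the neighbours named was shared between receptors. The root mean square spread of the receptors themselves around their means ran from 0.44 log2 units for *Ackr3* to 1.87 for *Fpr2*. A small difference is reached more easily by a gene of small spread, and these likenesses are descriptions.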

How the data were processed

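RNA-seq was made from neurovasculature of 13 mice with stranded poly(A) libraries and 75-base single-end reads. The authors ran bcl2fastq 2.15.0.4 and aligned reads to GRCm38 (mm10) with STAR 2.5.2a, and deposited whole-number read counts by gene of the basic GENCODE M9 annotation, without normalization or pooling. Which strand column was kept is not given in the sources used here. Groups and replicate numbers came from the labels. Symbols and positions came from GENCODE M21, which matched 47224 of 47643 identifiers. Promoter sequences are from RefSeq.

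The analysis used edgeR 4.0.16 under R 4.3.3. Its filterByExpr (minimum count 10, minimum total 15) kept 17285 of 27934 genes with a count. TMM factors ran from 0.908 to 1.08. All 13 mice entered 1 quasi-likelihood fit without covariates, and p-values were adjusted by Benjamini-Hochberg over all genes tested. CPM used TMM-scaled totals, and log2 CPM a prior count of 2. Standard errors were derived from the fit. Depth ranged 7.06-fold between libraries, and counts of a few reads carry counting error beside the spread between mice. Alternatives included limma 3.58.1 (voom, the study's test) and DESeq2 1.42.0. Figures were drawn with matplotlib 3.10.9.

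The genes named are all 9 receptors, of each related list at most 4 past the threshold per comparison by size of change, the 3 nearest profiles of each receptor, and the ligands said to be chosen after their values were seen. Receptors and lists were chosen with earlier results of these data known. Some values of single genes are not reported here.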

Additional observations from a re-analysis of the deposited data

Results flagged for a closer look

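Within 27 sets of values, 1 for each receptor and group, the gap between the highest or lowest mouse and its nearest neighbour was set against the range of the group. It exceeded Dixon's 95% critical value in 2 of the 27, where chance gives about 1 in 20. *Ccr2* in LPS-CPD-4645 mice was at 0.275 CPM in mouse 4 and at 0 in mice 1 to 3. *Fpr2* in LPS-CPD-4645 mice was at 5.84 CPM in mouse 2 and between 4.43 and 4.59 CPM in the other 3.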

How the results depend on the processing

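Under 10 alternatives and with each mouse left out, no receptor changed direction. Of 549 recomputed receptor values, 516 kept their side of the thresholds, 19 no longer passed and 14 came to pass. After LPS, 5 receptors were called, against 3 with limma-voom (*Ccr1*, *Ackr1* and *Fpr2*) and 1 with a glmTreat test against 2-fold (*Fpr2*), and from 4 to 6 with 1 mouse left out. Between the LPS groups, 1 was called, against 2 with DESeq2 or with only the compared groups in the fit (*Ccr1* and *Cmklr1*) and 0 with glmTreat, and from 1 to 3 with 1 mouse left out. Against sham-vehicle mice, LPS-CPD-4645 mice had 4 receptors called, and from 3 to 5 with 1 mouse left out. There *Ackr3* lost its call with limma-voom (log2 0.98) and with glmTreat. *Ccr1* gained a call with limma-voom under library quality weights (log2 1.98, adjusted p = 0.05). Over all genes, 981, 1019 and 1917 were called in the 3 comparisons, against 439, 65 and 561 with glmTreat, and 632 in the second with a mean count of at least 50. With a replicate block, 4, 3 and 3 receptors were called in the 3 comparisons. *Ackr2* was lost in the first, *Ccr1* and *Fpr2* were added in the second, and *Ackr3* was lost in the third. The deviations of the 12 same-numbered pairs of libraries from their group means had correlations from -0.0346 to 0.114, 1 of them over 0.1. In 6 of the 12 a library correlated best with the library of its own number, among the 4 or 5 of the other group. The labels do not say whether mice of the same number had anything else in common, and this was not tested. The comparisons rest on 4 or 5 mice a group, and depth limits *Ccr2* and the sham-vehicle values of *Ccr1*. Why single mice decide calls was not tested.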
